A study of Mus musculus with 4 samples.

Results

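Cd4, Cd8a and Cd8b1 encode the coreceptors of the helper and cytotoxic T cell lineages, and Zbtb7b and Runx3 encode the transcription factors that keep these lineages apart. The set described here holds these 5 genes, of 32285 genes counted, and the antibody tags for the CD4, CD8a and CD8b proteins, 3 of 197 named surface tags counted in the same cells. The 8 members were picked by name, all were found in the files of all 4 libraries, and cells were assigned to a lineage, where their protein tags allowed it, and to a state by their RNA.

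CD4 binds MHC class II and CD8, a dimer of alpha chains or of an alpha and a beta chain, binds MHC class I, and both bring the kinase Lck to the T cell receptor. Zbtb7b encodes ThPOK, which holds helper T cells in the CD4 lineage and represses CD8 and cytotoxic genes. Runx3 represses Cd4 and Zbtb7b in CD8 T cells and sustains cytotoxic genes, and CD4 T cells can also acquire Runx3 and cytotoxic genes when they respond in tissues or tumors.

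T cells came from subcutaneous tumors of male C57BL/6J mice, 6 weeks old, that were inoculated with 105K cells, a Tsc2-deficient mouse kidney tumor line. In the control group (sh-NC, 2 libraries) the tumor cells carried a non-targeting short hairpin RNA, and in the B7-H3 knockdown group (sh-B7-H3 (1), 2 libraries) a hairpin against Cd276, which encodes the checkpoint protein B7-H3. Live CD3+ cells were sorted from 80 pooled tumors per group, stained with TotalSeq-A antibodies and captured with 10x 3′ chemistry, so that RNA and tags were counted in the same cells (CITE-seq). The mice and their T cells carried no hairpin, and the tumor lines were transduced populations. The sources differ on the replicates. The series describes tumors pooled by group and loaded in duplicate lanes. The methods of the paper also describe pooling of each group before the sort, while its figure legends call the 2 samples of a group independent. If they are lanes of 1 pool, p-values measure only technical spread, and what separates the pools and what the hairpin did cannot be told apart.

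The libraries are named control 1, control 2, knockdown 1 and knockdown 2, and every run of 4 values follows this order. After filters on genes, mitochondrial UMIs and doublets, 6278, 5119, 2893 and 3872 cells remained of 12112, 10589, 7030 and 9129 called barcodes, with a median of 6304 to 8311 RNA UMIs per cell (18521099 to 50957570 UMIs per library). Any pair of libraries shared 17 to 35 barcodes. Cd3e was found in 87.7% to 96.1% of the kept cells. Cd276, the target of the hairpin, had 9 to 11 UMIs in all called cells of a library, and since the hairpin acted in tumor cells that the sort removed, it does not check the labels.

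The genes lie on 3 chromosomes of the mouse genome (GRCm38), as protein coding genes with the following spans. Cd4 is at chr6:124864692-124888221 on the minus strand, and Cd8b1 at chr6:71322788-71337494 and Cd8a at chr6:71373427-71379173 are neighbors on the plus strand. Zbtb7b is at chr3:89377644-89394776 on the minus strand and Runx3 at chr4:135120652-135177990 on the plus strand. Because Runx proteins bind ACCACA or its complement TGTGGT, these letters were searched on both strands of the 250 bases before the RefSeq starts (GRCm38.p6), and the windows of both factors that hold a match are shown, with the matches in capitals and each sequence 5′ to 3′ on the strand of its gene. The Runx3 window, chr4:135120395-135120644, has its matches 134 and 126 bases before the start and overlaps an exon of the noncoding gene Gm16225, and the Zbtb7b window, chr3:89387672-89387921, has its match 89 bases before the start and overlaps no exon.
Runx3: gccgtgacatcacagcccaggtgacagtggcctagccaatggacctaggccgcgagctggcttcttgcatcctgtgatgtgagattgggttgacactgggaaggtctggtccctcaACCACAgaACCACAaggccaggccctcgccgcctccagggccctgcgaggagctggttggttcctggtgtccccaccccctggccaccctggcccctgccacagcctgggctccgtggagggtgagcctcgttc
Zbtb7b: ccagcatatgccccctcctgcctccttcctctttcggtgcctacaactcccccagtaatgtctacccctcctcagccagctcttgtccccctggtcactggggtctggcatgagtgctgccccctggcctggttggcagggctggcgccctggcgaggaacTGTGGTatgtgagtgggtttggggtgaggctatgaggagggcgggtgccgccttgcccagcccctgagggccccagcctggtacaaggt

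Of 32851 such windows, 14.0% hold at least 1 match and 1.27% at least 2. The windows of Cd8a, of a second Runx3 start and of the other Zbtb7b start hold none of these letters. A match describes the sequence and not a binding site.

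The first question was how far coreceptor RNA and protein agree in single cells. A cell was called CD4+ or CD8+ when its CD4 or CD8b tag alone exceeded a threshold found in each library, 2.01 to 3.97 UMIs for the CD4 tag and 9.08 to 13.8 UMIs for the CD8b tag. This gave 2398, 2131, 1110 and 1244 CD4+ cells and 2416, 1948, 943 and 1351 CD8+ cells. The remaining cells bore both tags (222 to 355 cells) or neither (617 to 1131 cells) and were not used by lineage.

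Protein and RNA rarely pointed to opposite lineages, but Cd4 RNA missed many cells that bore the protein. A Cd4 UMI was found in 61.2%, 63.7%, 71.2% and 73.4% of CD4+ cells. A Cd8a or Cd8b1 UMI was found in 99.0%, 99.5%, 98.8% and 98.4% of CD8+ cells. Of the cells whose RNA was of the CD4 lineage (at least 1 Cd4 UMI and no Cd8a or Cd8b1 UMI), 73.3%, 80.5%, 79.7% and 71.1% were CD4+ by tag, and 0.147% to 1.43% were CD8+. Of the cells whose RNA was of the CD8 lineage (at least 3 Cd8a and Cd8b1 UMIs and no Cd4 UMI), 87.0%, 83.4%, 77.6% and 80.4% were CD8+ by tag, and 0.411% to 1.62% were CD4+. Most of the disagreement was thus with cells that bore neither tag or both.

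RNA of the other lineage was present in each class at levels that differed between the groups. A Cd8a or Cd8b1 UMI was found in 18.5% and 19.2% of control and 31.1% and 28.8% of knockdown CD4+ cells, and a Cd4 UMI in 2.15% and 1.80% of control and 5.62% and 6.81% of knockdown CD8+ cells. Free RNA also held these genes. In barcodes with 1 to 100 UMIs that were not called as cells, Cd4 was at 96.0, 88.5, 169.7 and 154.8 CPM, counts scaled to the RNA total. In the same barcodes Cd8a was at 379, 388, 371 and 353 CPM and Cd8b1 at 455, 464, 501 and 508 CPM. Free Cd4 RNA was thus higher in both knockdown libraries, and its part in the Cd4 counts of CD8+ cells was not tested.

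**Figure D1:**
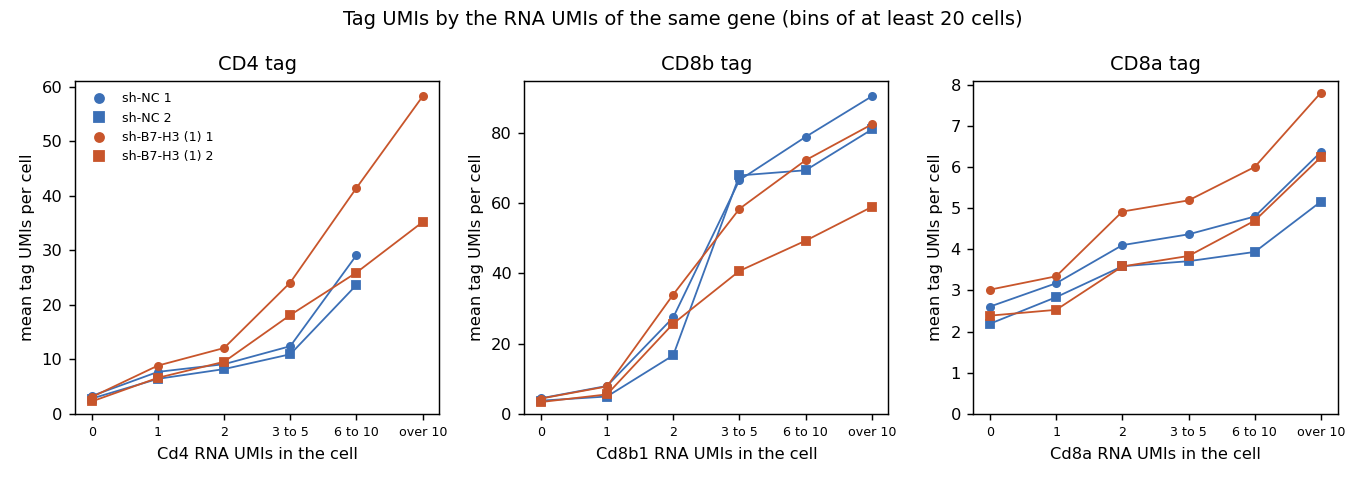
Mean UMIs of a tag per cell (vertical axis) by the number of RNA UMIs of the same gene in that cell (horizontal axis, bins), for the CD4, CD8b and CD8a tags, with 1 line per library and bins of at least 20 cells. The CD4 and CD8b tags climb with their RNA in every library, and the CD8a tag spans only 2.19 to 7.82 UMIs.

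The plot of tags by RNA shows the CD4 tag at 3.25, 2.77, 3.05 and 2.24 UMIs in cells without a Cd4 UMI and at 29.1, 23.6, 41.4 and 25.9 UMIs in cells with 6 to 10. The CD8b tag went from 4.38, 3.72, 4.31 and 3.32 UMIs without a Cd8b1 UMI to 90.5, 81.1, 82.5 and 59.0 UMIs above 10. The CD8a tag had a much smaller range, from 2.61, 2.19, 3.02 and 2.39 UMIs to 6.38, 5.17, 7.82 and 6.25 UMIs. Across all kept cells of a library, Spearman's rho of RNA and tag was 0.73 to 0.79 for Cd8b1, 0.48 to 0.62 for Cd4 and 0.32 to 0.36 for Cd8a, as a description in which depth and lineage are shared by the points. Within CD4+ cells rho of Cd4 and its tag was 0.15, 0.16, 0.52 and 0.47, higher with knockdown, and within CD8+ cells rho of Cd8b1 and its tag was 0.14 to 0.20. CD4+ cells mix effector and non-effector cells, defined below, whose shares differed between the groups. The part of this mix in the higher rho was not tested.

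The CD8a tag was close to its background. It made up 0.164%, 0.159%, 0.165% and 0.154% of tag UMIs in barcodes not called as cells, more than the 0.0808% to 0.0944% in called cells. The other coreceptor tags behaved the opposite way. The CD8b tag made up 0.784% to 0.850% of tags in called cells and 0.106% to 0.144% outside them, and the CD4 tag 0.0969% to 0.175% against 0.0533% to 0.0678%. The CD8b tag defined CD8+ cells, and a lineage call by the CD8a tag left 42.3% of CD4 RNA cells and 65.2% of CD8 RNA cells in the matching class (mean of 4 libraries), against 76.1% and 82.1%.

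The next question was how the lineage factors follow lineage and effector state. An effector cell was one with at least 3 UMIs of Nkg7, a gene of cytotoxic granules. Effector cells were 8.01%, 8.63%, 43.3% and 46.1% of CD4+ cells and 77.3%, 81.5%, 91.2% and 89.3% of CD8+ cells. Both shares were higher in both knockdown libraries, by 36.4 and 10.9 percentage points, but an exact permutation test of 2 against 2 libraries (two-sided) cannot go below the p = 0.333 found for each. Levels below are CPM, the UMIs of a gene relative to all RNA UMIs summed over the cells of a class, and fold changes are log2 ratios after TMM scaling with their SE and the adjusted p of edgeR's quasi-likelihood test.

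Zbtb7b was a CD4 lineage gene in both states. In non-effector CD4+ cells it was at 39.7, 36.6, 39.9 and 42.9 CPM, and in effector CD4+ cells at 20.0, 29.2, 18.9 and 14.2. In CD8+ cells it did not exceed 6.23, and CD8+ effector cells held 17, 11, 12 and 21 Zbtb7b UMIs in all, at 1.01, 0.756, 1.96 and 2.33 CPM. CD4+ and CD8+ classes therefore did not overlap in any library. Over all CD4+ against CD8+ cells the log2 fold change was 4.28 ± 0.19 (adjusted p = 8.46e-08), and all 5 genes were called in this comparison, in which 28.2% of the 11441 genes tested were.

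Runx3 did not follow lineage alone. In CD8+ cells it was at 132, 157, 116 and 106 CPM in non-effector cells, those with fewer than 3 Nkg7 UMIs, and at 185, 194, 289.8 and 294 in effector cells. In CD4+ non-effector cells it was lowest of the 4 classes, at 44.5, 45.3, 54.9 and 54.2. In CD4+ effector cells it was highest, at 376, 378, 486 and 499.97. The order of the 4 classes was the same in every library, and no class overlapped another.

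The lineage difference in Runx3 therefore had opposite signs in the 2 states. Summed over states, Runx3 was lower in CD4+ than in CD8+ cells (log2 −0.89 ± 0.20, adjusted p = 0.0060). Among non-effector cells it was lower in CD4+ cells by log2 −1.48 ± 0.07 (adjusted p = 2.57e-17, 18.6% of genes called), and among effector cells higher by 0.53 ± 0.04 (adjusted p = 1.87e-13, 48.8% of genes called). The summed value depends on how many cells of each state a lineage holds, and its call was lost with DESeq2 (−0.90, adjusted p = 0.052). Both differences within states kept their direction and call under all 17 alternatives, between −1.62 and −0.83 and between 0.30 and 0.87. The effector classes were not alike in Nkg7. After each cell was thinned to 2000 UMIs, cells with 8 or more Nkg7 UMIs were 60.9%, 55.7%, 70.2% and 70.9% of CD4+ effector cells. In CD8+ effector cells they were 10.6%, 13.7%, 48.6% and 44.1%. With 8 or more, Runx3 was at 445, 457, 510.2 and 532 CPM in CD4+ and 482, 456, 396 and 418 in CD8+ cells. The part of this mix in the lineage difference was not tested.

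**Figure D2:**
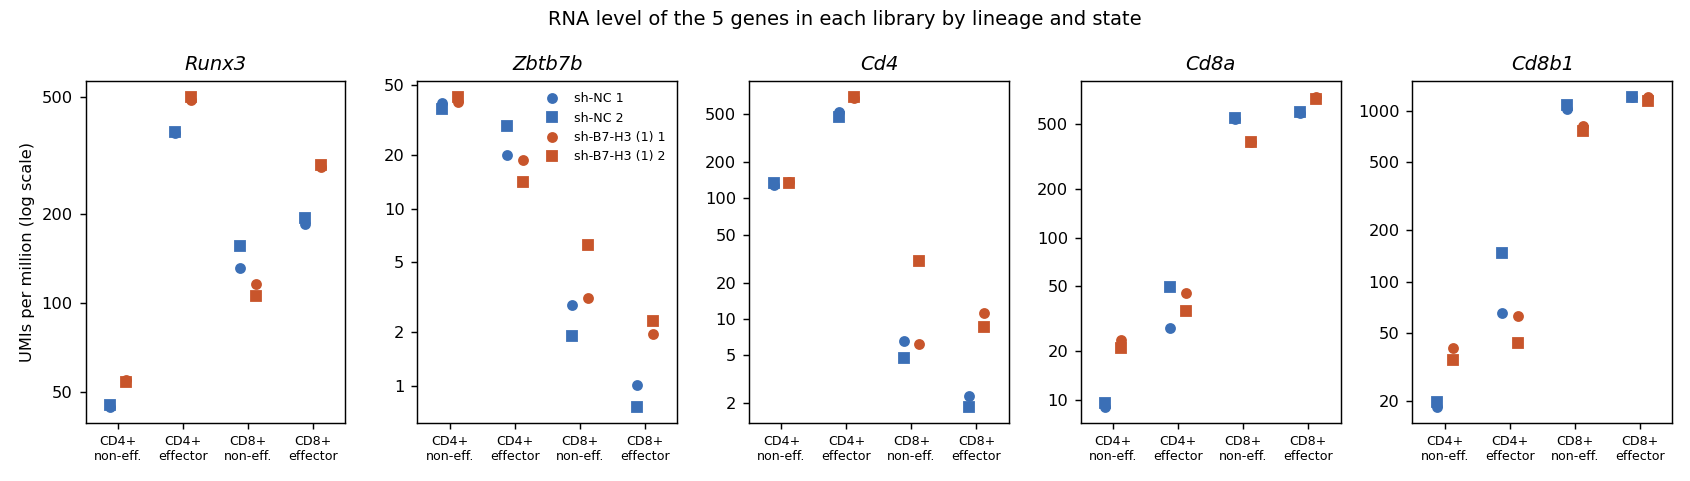
RNA level of Runx3, Zbtb7b, Cd4, Cd8a and Cd8b1 in CPM (vertical axes, log scale) by lineage and state (horizontal axes), 1 point per library. Runx3 is highest in CD4+ effector cells (376 to 499.97) and lowest in CD4+ non-effector cells (44.5 to 54.9), while Zbtb7b is high only in the CD4+ classes.

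Within the CD4+ lineage all 5 genes differed between the states, in a comparison that called 50.7% of 9930 genes. Runx3 rose by log2 2.81 ± 0.06 (adjusted p = 1.55e-09), and Zbtb7b fell (−1.34 ± 0.17, adjusted p = 7.67e-05). Cd4 itself was at 129, 134, 136 and 133 CPM in non-effector and at 515, 469, 675 and 697 in effector CD4+ cells, and rose by 1.82 ± 0.10 (adjusted p = 1.27e-07). Cd8a rose by 1.07 ± 0.23 (adjusted p = 0.0027) and Cd8b1 by 1.14 ± 0.34 (adjusted p = 0.018), from far lower levels than in CD8+ cells. The summed level of 4 gamma-delta T cell markers was 236 to 268 CPM in CD4+ effector cells and 7.21 to 13.5 in CD4+ non-effector cells. Tcrg-C2 made up most of it (165 to 205 CPM in effector cells), while Trdc, the constant gene of the delta chain, was found in 0.521%, 2.17%, 1.66% and 1.22% of effector and in 2.54%, 2.36%, 3.18% and 2.38% of non-effector cells, at 3.85, 24.0, 5.58 and 11.1 against 6.33, 5.14, 6.18 and 4.70 CPM. Of 3 NK cell markers Ncr1 and Klra8 were at 0 in all of these classes while Klrb1c had 0, 11, 0 and 6 UMIs in CD4+ effector cells (8.24 CPM in control 2). Without cells that held 2 or more UMIs of other cell types' markers, every one of these calls held. The filter counted the gamma-delta genes too and left 119, 118, 275 and 316 of the 192, 184, 481 and 573 CD4+ effector cells. The 3 regulatory T cell markers summed to 379, 349, 350 and 344 CPM in CD4+ effector cells. In CD4+ non-effector cells they summed to 193, 217, 429 and 343. Foxp3, 1 of them, was found in 6.77%, 7.61%, 4.99% and 3.66% of effector and 12.2%, 13.3%, 21.9% and 18.5% of non-effector CD4+ cells.

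The Cd8 RNA of CD4+ effector cells was spread unevenly over its cells. Cd8b1 was at 65.4, 147.5, 63.0 and 44.0 CPM in this class and at 18.5, 19.7, 41.3 and 34.8 in non-effector CD4+ cells. In control 2, 32 cells without a Cd4 UMI held 175 of the 197 Cd8b1 UMIs of the class. In the other libraries 31, 42 and 32 such cells held 53 of 85, 118 of 203 and 61 of 174. CD4+ effector cells with a Cd4 UMI had Cd8b1 at 28.8, 20.7, 28.5 and 30.0 CPM, a narrow range. The cells without one had a mean CD4 tag of 12.8, 8.94, 10.2 and 14.9 UMIs, against 27.0, 24.0, 34.5 and 25.5 in those with one. Their mean CD8b tag was 4.61, 5.53, 4.74 and 2.78 UMIs, against 3.19, 2.54, 3.15 and 2.35. The part of these cells in the Cd8b1 differences was not tested. The Cd8b1 call of this state comparison was lost without control 1 (1.04, adjusted p = 0.065) and without control 2 (0.56, adjusted p = 0.074).

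Within the CD8+ lineage the comparison of the states called a smaller share of genes, 5.54% of 9747. The 4 markers of naive T cells summed to 956, 930, 759 and 777 CPM in non-effector and 834, 791, 313 and 353 in effector CD8+ cells. In CD4+ effector cells they summed to 116, 165, 64.8 and 49.4. With at least 5 Nkg7 UMIs more genes were called, as given below. The part of the Nkg7 rule in the smaller share was not tested. Runx3 rose by log2 0.74 ± 0.14 (adjusted p = 0.0094), a call that was lost without knockdown 2 (0.58, adjusted p = 0.062). Zbtb7b and Cd4, both near the limit of detection in CD8+ cells, were lower in effector cells (−1.40 ± 0.34, adjusted p = 0.034, and −1.36 ± 0.32, adjusted p = 0.031), and 8 of 17 alternatives ended the Zbtb7b call, among them leaving out control 1 (−1.35, adjusted p = 0.18), control 2 (−1.44, adjusted p = 0.14) or knockdown 2 (−1.32, adjusted p = 0.19). Both genes were below their free RNA level in both CD8+ classes of every library. Few cells carried the non-effector value of Zbtb7b. The 21, 13, 2 and 21 non-effector CD8+ cells with a Cd4 UMI had it at 49.0, 24.2, 65.5 and 37.6 CPM (9, 3, 1 and 6 UMIs), with a mean CD8b tag of 49.95, 69.6, 14.5 and 25.3 UMIs against 79.0, 74.0, 54.2 and 43.8 in the rest. That rest had Zbtb7b at 0.913, 0.994, 1.60 and 1.04 CPM, and effector CD8+ cells without a Cd4 UMI at 0.965, 0.768, 1.93 and 2.24, so that among cells without Cd4 RNA the levels of the states overlapped. Cd8a (0.40 ± 0.11, adjusted p = 0.068) and Cd8b1 (0.29 ± 0.08, adjusted p = 0.066) did not pass the test. When sums were scaled by their total in place of TMM, Cd8a (0.49) and Cd8b1 (0.38) passed it.

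The step in Runx3 was larger in the CD4+ than in the CD8+ lineage, by log2 2.00 ± 0.08 (adjusted p = 1.99e-19 for the difference itself, 21.7% of 10382 genes called). The Nkg7 level of the effector classes differed between the lineages, as given above, and its part in this difference was not tested. The step of Zbtb7b was not called different between lineages (0.14 ± 0.35, adjusted p = 0.84). The CD8+ classes held only 2 to 21 Zbtb7b UMIs per library, below its free RNA level, so this test cannot show whether the lineages share the step. TMM scaling lowered the effector against non-effector comparison of CD4+ cells by log2 0.31 and the lineage comparison by 0.15 relative to scaling by the total, and no sign of a member changed with it.

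The share of cells with Runx3 RNA showed the same order at equal depth. After each cell was thinned to 2000 UMIs, Runx3 was found in 7.69%, 7.72%, 10.7% and 9.13% of CD4+ non-effector cells and in 50.5%, 45.9%, 57.5% and 58.6% of CD4+ effector cells. In CD8+ cells it was found in 22.6%, 28.9%, 23.2% and 16.1% of non-effector and 29.8%, 30.3%, 42.4% and 44.3% of effector cells. Unthinned, the share in CD4+ effector cells was 74.5%, 81.5%, 86.3% and 86.0%, and in CD4+ non-effector cells 25.9% to 28.2%. Zbtb7b was found in 7.05% to 8.94% of CD4+ non-effector, 2.79% to 6.56% of CD4+ effector and 0% to 1.40% of CD8+ cells at 2000 UMIs. Its share in CD8+ cells, a lineage known to lack it, serves as a comparison, and what made it up was not tested. In knockdown 1 it was 0 of 82 non-effector CD8+ cells, with an exact upper limit of 4.40% that covers counting error only. Unthinned, the 10, 6, 2 and 5 non-effector CD8+ cells with a Zbtb7b UMI had Cd4 at 91.7, 88.5, 197 and 236 CPM. The other non-effector CD8+ cells had Cd4 at 4.91, 3.24, 1.60 and 24.7 CPM. Free RNA held Zbtb7b at 20.0 to 24.0 CPM, and before thinning the class medians over the cells kept were 6390.5 to 8020 UMIs in CD4+ and 6637 to 9069 UMIs in CD8+ cells.

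Runx3 and Zbtb7b UMIs were also counted together in single CD4+ cells, as a description, since free RNA held Runx3 at 82.2 to 155.8 CPM, above its level in the non-effector class, and a UMI of each in a cell does not show that the cell expressed both. In the non-effector class Runx3 was found in 25.7%, 29.8%, 28.5% and 33.5% of cells with a Zbtb7b UMI and in 26.0%, 26.6%, 26.8% and 26.4% of those without. In the effector class it was found in 64%, 80.6%, 78.2% and 90.2% of 25, 31, 55 and 51 cells with a Zbtb7b UMI and in 76.0%, 81.7%, 87.3% and 85.6% of those without. Cells with Zbtb7b had the higher share of Runx3 in 3 of 4 libraries of the non-effector class and in 1 of 4 of the effector class. These cells were not thinned. Non-effector cells with a Zbtb7b UMI had a median of 7622, 8070, 6593 and 7190 RNA UMIs, against 7425, 7969, 6576 and 6621 in the others. In the effector class the medians were 6431, 7040, 6456 and 7314 against 6350, 7180, 6418 and 6619.5. The part of depth in these shares was not tested. The ratio of Runx3 to Zbtb7b UMIs was 1.12, 1.24, 1.38 and 1.26 in CD4+ non-effector and 18.8, 12.9, 25.7 and 35.3 in CD4+ effector cells.

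**Figure D3:**
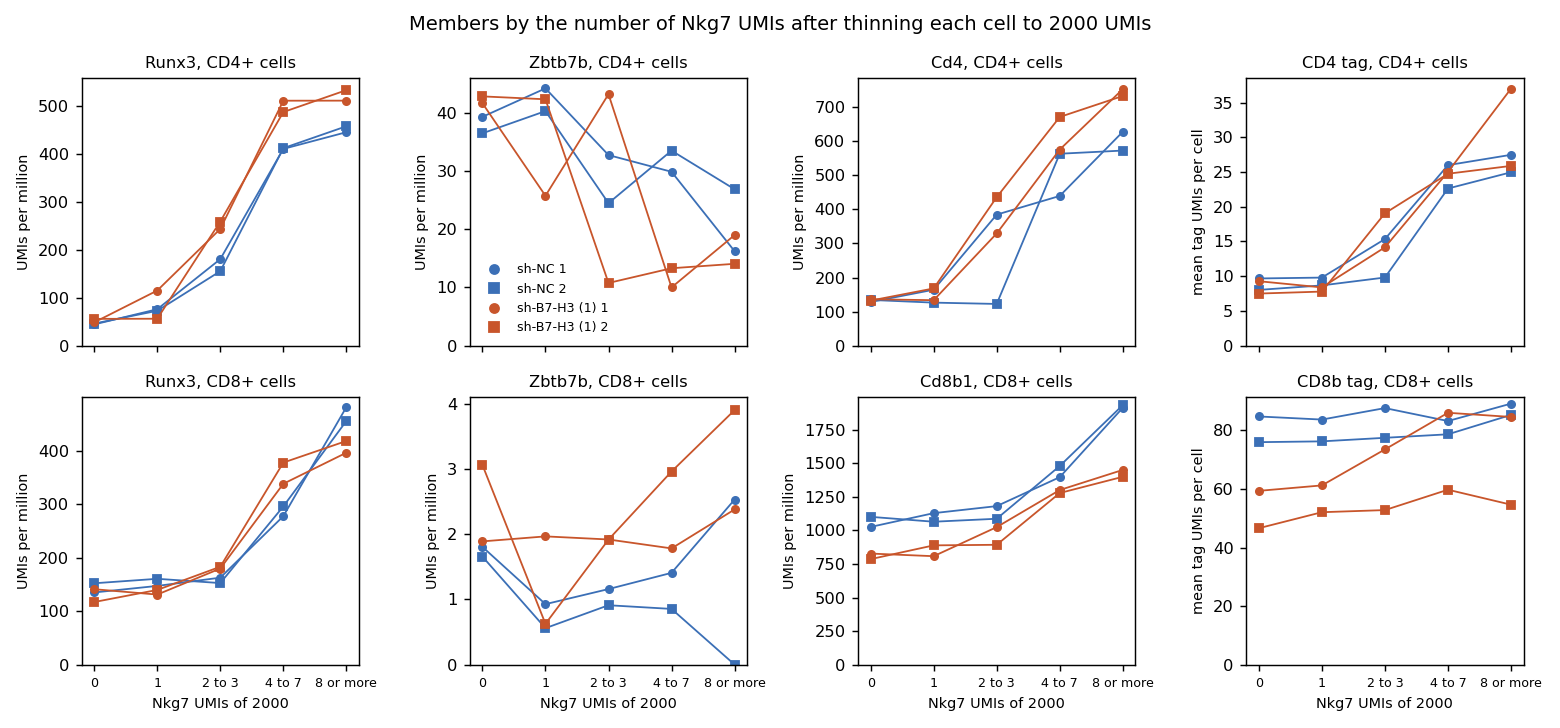
Runx3, Zbtb7b and coreceptor RNA (CPM) and the CD4 and CD8b tags (mean UMIs per cell) by the number of Nkg7 UMIs in 2000 UMIs of a cell, in CD4+ cells (upper row) and CD8+ cells (lower row), 1 line per library. Runx3 and Cd4 climb with Nkg7 in CD4+ cells, and Zbtb7b declines unevenly.

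The grading by Nkg7 in the plot of Nkg7 bins gave a finer view than the threshold. In CD4+ cells Runx3 went from 44.1, 45.9, 48.4 and 55.7 CPM in cells with no Nkg7 UMI of 2000 to 445, 457, 510.2 and 532 in cells with 8 or more, and Cd4 from 128, 134, 136 and 132 to 628, 573, 753 and 733. Zbtb7b went from 39.3, 36.5, 41.7 and 42.8 to 16.2, 26.9, 19.0 and 14.1. The CD4 tag followed the RNA, from 9.68, 8.03, 9.28 and 7.50 to 27.5, 25.0, 37.0 and 25.9 UMIs per cell. In CD8+ cells Runx3 went from 135, 152, 141 and 117 to 482, 456, 396 and 418, so that at 8 or more Nkg7 UMIs of 2000 the ranges of the lineages overlapped. Cd8b1 RNA of CD8+ cells went from 1027, 1102, 828 and 786 to 1915, 1935, 1452 and 1400.5 CPM, while the CD8b tag differed less, from 84.8, 76.0, 59.4 and 46.6 to 89.2, 85.3, 84.6 and 54.6 UMIs per cell.

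The third question was what differed between B7-H3 knockdown and control tumors within a lineage and state. Runx3 was higher in both knockdown libraries in 3 of 4 classes, as the levels above show. It rose in CD8+ effector cells by log2 0.51 ± 0.04 (adjusted p = 1.07e-14), in a comparison that called 43% of 11127 genes. In CD4+ effector cells it rose by 0.44 ± 0.06 (adjusted p = 0.00084, 5.43% of 9206 genes called) and in CD4+ non-effector cells by 0.31 ± 0.08 (adjusted p = 0.012, 10.7% of 10986 genes called). In CD8+ non-effector cells the value was −0.24 ± 0.12 (adjusted p = 0.49), with 1.08% of 8262 genes called and only 83 and 144 knockdown cells. Free RNA held Runx3 at 93.6, 82.2, 148.6 and 155.8 CPM, higher in both knockdown libraries and above the level of CD4+ non-effector cells in every library, and its part in these differences was not tested. The difference between the CD8+ states was itself called (0.78 ± 0.12, adjusted p = 9.82e-06, 5.72% of genes), and that between the CD4+ states was not (0.13 ± 0.10, adjusted p = 0.63, 4.34% of genes).

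The knockdown and control cells of the effector class also differed in their Nkg7 level. Cells with 8 or more Nkg7 UMIs of 2000 were 10.6%, 13.7%, 48.6% and 44.1% of CD8+ effector cells. In CD8+ cells of that bin Runx3 was at 482, 456, 396 and 418 CPM, lower in both knockdown libraries, and with 4 to 7 Nkg7 UMIs at 278, 296, 338 and 378, higher in both. The rise over the whole class is thus not found at every Nkg7 level, and the group difference within bins was not tested. In CD4+ cells both knockdown libraries were higher in both of these bins (410, 411, 510.1 and 486 CPM with 4 to 7, and the values given above with 8 or more). Cells with 1 Nkg7 UMI of 2000 were 2.72%, 2.30%, 6.39% and 8.62% of CD4+ cells. They were 6.77%, 5.46%, 1.67% and 1.92% of CD4+ effector cells, and the rest of them counted as non-effector cells. Their part in the group differences of CD4+ non-effector cells was not tested.

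The 3 Runx3 calls were not equally firm. That in CD8+ effector cells held under all 20 alternatives (0.43 to 0.62). In this class the summed gamma-delta T cell markers were at 45.7, 49.6, 189 and 190 CPM with Tcrg-C2 at 29.3, 34.1, 132 and 119 and Trdc at 7.82, 3.44, 18.5 and 19.1. Of 3 regulatory T cell markers Ikzf2 was at 18.3, 24.1, 92.6 and 96.8 CPM, Foxp3 at 0.830, 0.825, 3.11 and 3.33 and Il2ra at 0.619 to 1.19. The filter on other cell types' markers also counts the gamma-delta genes. Of 1867, 1588, 860 and 1207 CD8+ effector cells it left 1602, 1354, 553 and 758, a smaller share in both knockdown libraries. Without cells holding 2 or more UMIs of other cell types the Runx3 value was 0.43 (adjusted p = 8.41e-08). That in CD4+ effector cells was lost without knockdown 1 (0.47, adjusted p = 0.52) and without knockdown 2 (0.42, adjusted p = 0.54), where edgeR called 0 genes and 812 and 741 had an unadjusted p under 0.05 (DESeq2 on all 4 libraries called 164). The same filter left 119, 118, 275 and 316 of 192, 184, 481 and 573 cells of this class. With it the Runx3 value was 0.75 (called), and the difference from non-effector CD4+ cells was then called (0.44, adjusted p = 0.015). That in CD4+ non-effector cells was lost under 12 of 20 alternatives, among them leaving out any library, DESeq2 (0.30, adjusted p = 0.28) and leaving out cells with a Foxp3 UMI (0.26, adjusted p = 0.085). Foxp3, the factor of regulatory T cells, was found in 12.2%, 13.3%, 21.9% and 18.5% of the cells of this class. Runx3 was at 44.3, 48.6, 80.1 and 60.4 CPM in those cells, from 83, 90, 69 and 47 UMIs, and at 44.5, 44.9, 48.4 and 53.0 in the others. The part of the Foxp3 share in this call was not tested.

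Zbtb7b RNA of CD4+ cells was not called between the groups. The log2 fold change was 0.15 ± 0.09 in non-effector (adjusted p = 0.37) and −0.54 ± 0.25 in effector cells (adjusted p = 0.27). The few Zbtb7b UMIs of CD8+ effector cells were higher in the knockdown (1.17 ± 0.39, adjusted p = 0.012), a call lost under 5 of 20 alternatives, among them DESeq2 (adjusted p = 0.20), leaving out control 2 (0.98, adjusted p = 0.12) or knockdown 2 (1.02, adjusted p = 0.19), and leaving out cells with markers of other cell types (0.93, adjusted p = 0.13). In CD8+ non-effector cells, with 2 to 13 UMIs per library, Zbtb7b was not tested.

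The coreceptor genes were called between the groups both in classes where they are low and in those of their own lineage. In CD4+ non-effector cells the control libraries had Cd8a at 8.995 and 9.52 CPM, and those of the knockdown at 23.3 and 20.9. It rose by log2 1.28 ± 0.14 (adjusted p = 1.66e-06), and Cd8b1 by 1.01 ± 0.11 (adjusted p = 1.19e-06). Both calls were lost when lineage was called with the CD8a tag (0.61 and 0.27). These levels of Cd8a lie far below its free RNA level of 353 to 388 CPM. RNA of some myeloid markers was also higher in both knockdown libraries. The 9 myeloid and dendritic markers summed to 215, 194, 325 and 270 CPM in this class. Apoe was found in 5.08%, 5.03%, 21.0% and 21.6%, Lyz2 in 1.27%, 2.05%, 5.25% and 5.22% and C1qb in 1.86%, 1.75%, 4.61% and 5.22% of its cells. In CPM, Apoe, C1qa and C1qb were higher in both knockdown libraries. Lyz2 (20.2, 29.4, 25.2 and 20.5 CPM), Csf1r, Cd68, Itgax and Xcr1 overlapped between the groups, with Itgax at 0 in knockdown 2. Siglech was at 0 in all 4 libraries. Without cells holding 2 or more UMIs of other cell types, Cd8a (1.25) and Cd8b1 (1.01) were still called. Cd4 RNA of CD8+ effector cells was at 2.31, 1.86, 11.3 and 8.55 CPM, and rose by 2.09 ± 0.22 (adjusted p = 6.24e-11). These Cd4 UMIs were found in 1.66% and 1.39% of control and 5.93% and 5.88% of knockdown CD8+ effector cells. Free Cd4 RNA was higher in both knockdown libraries, as given above. The 9 myeloid and dendritic markers summed to 22.0, 67.8, 65.8 and 138 CPM in CD8+ effector cells. The part of either in the Cd4 rise was not tested. In CD8+ non-effector cells Cd4 was at 6.57, 4.78, 6.26 and 30.2 CPM, high in knockdown 2 alone, and not called (1.98 ± 0.48, adjusted p = 0.073).

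In CD4+ effector cells Cd4 rose with knockdown by log2 0.54 ± 0.06 (adjusted p = 0.00014), against 0.06 ± 0.05 in non-effector CD4+ cells (adjusted p = 0.57), and the difference between the states was 0.47 ± 0.11 (adjusted p = 0.0043). Leaving out either knockdown library ended the call in effector cells (0.51 to 0.57). In CD4+ effector cells the 9 myeloid and dendritic markers summed to 37.7, 38.2, 85.3 and 72.1 CPM. Foxp3 was found in 6.77%, 7.61%, 4.99% and 3.66% of these cells. The part of either in the Cd4 rise was not tested. Cd8b1 fell in CD4+ effector cells by 0.97 on the log2 scale (SE 0.25, adjusted p = 0.036), but 7 of 18 alternatives ended this call. Without control 2, whose 32 cells are described above, the value was −0.24 (adjusted p = 0.60). It was −1.21 without knockdown 1 (adjusted p = 0.60), −0.71 without knockdown 2 (adjusted p = 0.76) and −0.96 with the replicate number as a block (adjusted p = 0.059).

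In CD8+ effector cells, the class with most Cd8 RNA, the chains moved apart. Cd8a was at 591, 598, 742 and 716 CPM and rose by log2 0.18 ± 0.04 (adjusted p = 3.19e-05). Cd8b1 was at 1209.9, 1197, 1204 and 1145 and fell (−0.15 ± 0.03, adjusted p = 0.00042), a call that was lost when sums were scaled by their total (−0.04, adjusted p = 0.35), where TMM moved the comparison by −0.11. The ratio of Cd8a to Cd8b1 UMIs needs no scaling. It was 0.488 (95% exact interval 0.4765 to 0.4999) and 0.4995 (0.487 to 0.513) in the control pair and 0.617 (0.594 to 0.640) and 0.625 (0.606 to 0.645) in the knockdown pair, with intervals that cover counting error only and do not overlap between groups. In CD8+ non-effector cells it was 0.528, 0.512, 0.482 and 0.509, with intervals that overlapped. The exact permutation p was 0.333 in both, the lowest this design allows. In every library the ratio was highest in CD8+ cells with 8 or more Nkg7 UMIs of 2000, of which the knockdown held more. There it was 0.699, 0.667, 0.721 and 0.710, with intervals that overlapped between groups, and Cd8a was at 1339, 1290, 1046 and 994 CPM, lower in both knockdown libraries. With 4 to 7 it was 0.521, 0.514, 0.644 and 0.638, with intervals that did not overlap between groups.

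In CD8+ non-effector cells both Cd8 chains were lower in the knockdown libraries. Cd8a was at 538, 551, 391 and 388 CPM and Cd8b1 at 1018.5, 1077.5, 812 and 761. Neither passed the test (−0.34 ± 0.08, adjusted p = 0.080, and −0.27 ± 0.08, adjusted p = 0.13), while scaling by the total, from which TMM differed by 0.12, gave −0.47 (adjusted p = 0.0077) and −0.40 (adjusted p = 0.0093). In knockdown 1 the 9 myeloid and dendritic markers summed to 3085 CPM in this class of 83 cells, against 213 to 476 in the other libraries. Without cells holding 2 or more UMIs of other cell types, both fell (Cd8a −0.38, adjusted p = 0.0019, and Cd8b1 −0.26, adjusted p = 0.023). The state difference in the knockdown effect on Cd8a was called (0.54 ± 0.09, adjusted p = 6.87e-05).

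**Figure D4:**
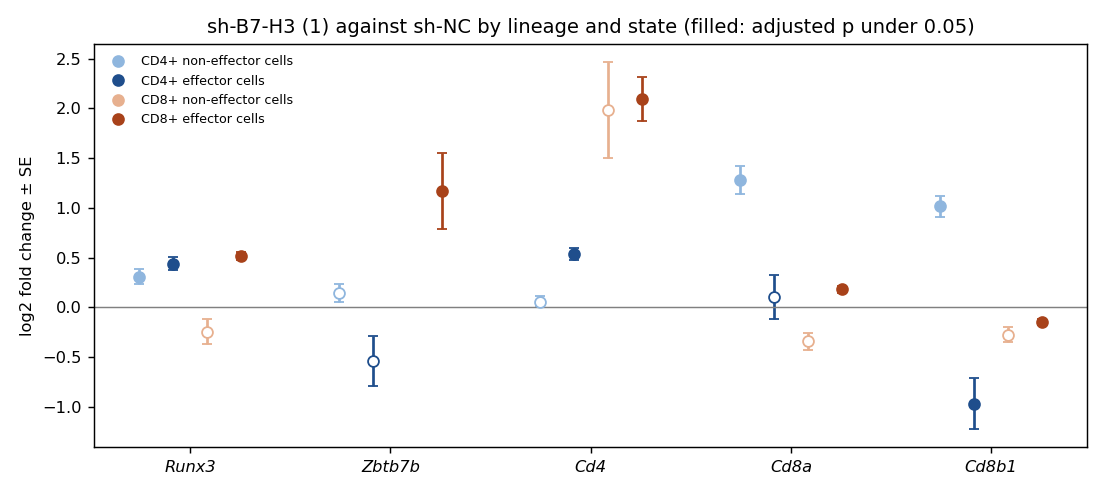
Log2 fold change of knockdown against control (vertical axis, ± SE) for each gene in the 4 classes of lineage and state (n = 2 libraries per group), with filled points at adjusted p under 0.05. Runx3 is filled above 0 in 3 classes, and Cd8b1 lies above 0 in CD4+ non-effector cells (1.01) and below 0 in CD4+ effector cells (−0.97).

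The tags were compared between states and groups in cells whose lineage was called from RNA, so that the tag under test did not choose the cells. In CD4 RNA cells the CD4 tag was at 8.28, 6.96, 7.51 and 5.42 UMIs per non-effector cell and at 23.2, 23.7, 33.9 and 23.4 per effector cell. It rose with the effector state by log2 1.81 ± 0.12 (adjusted p = 0.0017, 24.4% of 197 tags called), and by 1.26 when tags were scaled by their total. The sum of the 9 isotype control tags was 12.6 to 18.5 UMIs per cell in all classes. The protein thus followed Cd4 RNA from non-effector to effector cells.

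Between the groups the CD4 tag of CD4 RNA cells rose by log2 0.81 ± 0.04 (adjusted p = 0.0013), in a comparison that called 51.8% of tags. This value mixes the states, and the knockdown libraries held more effector cells. Within effector cells it was 0.25 and not called, and within non-effector cells −0.31 and called (adjusted p = 0.019). With scaling by the total of the tags these values were 0.78 and 0.15, so that their size and sign depend on the scaling. Tag UMIs per CD4 RNA cell ran from 4410 to 2689 in non-effector and from 7369 to 4095 in effector cells, lowest in knockdown 2 in each case.

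In CD8 RNA cells the CD8b tag was at 84.4, 75.4, 74.4 and 50.9 UMIs per effector cell and at 75.9, 70.6, 43.4 and 36.0 per non-effector cell. It was lower in the knockdown by log2 −0.52 ± 0.04 (adjusted p = 0.0031, 61.4% of tags called), and by −0.11 (adjusted p = 0.051) with scaling by the total. The effector state gave 0.32 ± 0.11 (adjusted p = 0.17, 4.57% of tags called). The CD8a tag was at 4.57, 3.81, 5.63 and 4.26 UMIs per CD8 RNA effector cell and at 2.14 to 3.01 per CD4 RNA cell, and it was called in none of the 4 tag comparisons, in which it reached an unadjusted p of 0.054 to 0.89 by edgeR.

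**Figure D5:**
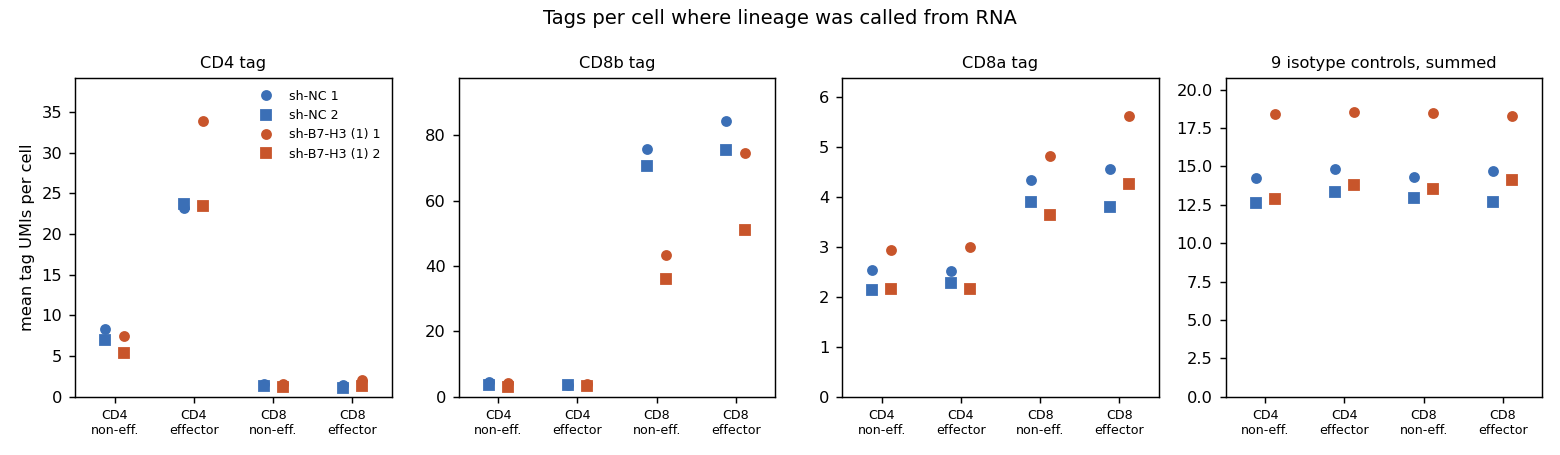
Mean UMIs per cell (vertical axes) of the CD4, CD8b and CD8a tags and of 9 isotype controls together, in cells whose lineage was called from RNA, by lineage and state, 1 point per library. The CD4 tag sits at 5.42 to 8.28 in CD4 non-effector and 23.2 to 33.9 in CD4 effector cells, and the isotype controls stay between 12.6 and 18.5.

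Genes that work with the members were followed as lists, whose medians stand against medians over all genes tested of −0.0076 to 0.0077 in the 7 comparisons. Among 20 regulators of lineage and coreceptor expression, 3 rose and 11 fell in CD4+ effector against non-effector cells (median log2 −0.47), 14 of 20 where 50.7% of all genes were called. The inhibitor Id2 (2.97) and Tox (2.34), a factor needed for CD4 lineage development, rose, and Id3 (−4.20) and Tcf7 (−3.97), a factor of naive and memory cells, fell. With scaling by the total 6 rose and 9 fell. Among CD8+ effector cells, where 5.54% of all genes were called, 2 rose, Id2 (1.92) and Tox (1.11), and 4 fell, Myb (−1.41) and Id3 (−1.05) the most. In the lineage comparison, with 28.2% of all genes called, 7 were higher and 5 lower in CD4+ cells, with Runx1 (0.96) and Gata3 (0.77), which acts before Zbtb7b in CD4 commitment, the highest and Zbtb7a (−0.30) and Tcf12 (−0.23) the lowest. Scaling by the total gave 10 higher and 1 lower.

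Of 12 cytotoxic genes that Runx3 is known to act on or with, 10 rose and none fell in effector cells of either lineage, with a median of 3.51 in CD4+ and 2.19 in CD8+ cells. Of all genes 50.7% were called in CD4+ and 5.54% in CD8+ cells. Gzmk, a granzyme, rose by 7.97 and 6.33. The chemokine gene Ccl5 rose by 6.57 in CD4+ cells and Ifng by 5.92 in CD8+ cells. The smallest called changes in CD4+ cells were those of Gzmb (1.62), another granzyme, and Prdm1 (2.47), and in CD8+ cells those of Prf1 (0.72) and Klrd1 (0.53). Cytotoxic granule genes belong to the same program as Nkg7, which defined the state, so that these counts describe the classes and test nothing new. Over all cells 9 of the 12 were lower in CD4+ than in CD8+ cells, Crtam (−2.27) and Klrd1 (−1.72) the most. The other 3 were higher, among them Prdm1 (0.77) and Ifng (0.56). In this comparison 28.2% of all genes were called. It sums the states, and effector cells were 8.01% to 46.1% of CD4+ and 77.3% to 91.2% of CD8+ cells. The part of this mix was not tested.

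Of 8 CD4 helper genes, 7 were higher in CD4+ cells and none lower (median 2.30), led by Cd40lg (5.06), the ligand of CD40, and Tnfrsf4 (4.62). In this comparison 28.2% of all genes were called. In CD4+ effector cells 3 rose and 2 fell, where 50.7% of all genes were called. Il21 (2.59) and Cxcr5 (2.37), genes of follicular help, were at the upper end and Cd40lg (−3.08) and Cd28 (−0.73) at the lower end. For CD8+ effector cells 6 were tested, and Tnfrsf4 alone was called (−1.61), where 5.54% of all genes were. Of 6 genes of coreceptor signaling, Cd3e (1.23), Zap70 (1.21) and Cd247 (0.93) rose and Lat (−0.38) fell in CD4+ effector cells (5 rose and none fell with scaling by the total), and in CD8+ effector cells Cd3e rose (0.53). Lck, the kinase that CD4 and CD8 carry, was called in no comparison, with values of −0.09 to 0.12. Between the lineages Cd247 (0.65) and Zap70 (0.17) were higher in CD4+ cells and Cd3e (−0.12) and Lat (−0.11) lower, the last pair turning to 0.02 and 0.04, not called, with scaling by the total.

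Between the groups the lists moved in different ways by class. In CD8+ effector cells, where 43% of all genes were called, 10 of the 12 cytotoxic genes rose and 1 fell, with Ifng (2.33) and Ccl5 (2.20) the highest and Crtam (−0.68) the 1 that fell. There 3 of 20 regulators rose and 11 fell, Tox (1.45) and Id2 (1.39) against Tcf7 (−1.45) and Lef1 (−1.39), where scaling by the total gave 6 and 6 and DESeq2 3 and 5. Of 6 helper genes tested 5 rose, Maf (1.59) and Tnfrsf4 (1.28) the most, and of 6 signaling genes Cd3e (0.49) and Zap70 (0.47) rose and Lat (−0.26) fell (4 and 1 with scaling by the total). Cells with 8 or more Nkg7 UMIs of 2000 were 10.6%, 13.7%, 48.6% and 44.1% of CD8+ effector cells. The 4 naive markers, which include Tcf7 and Lef1, summed to 834, 791, 313 and 353 CPM there. The part of this mix in the list counts of CD8+ effector cells was not tested. In CD4+ effector cells, with 5.43% of all genes called, 6 of 8 helper genes fell and none rose (median −1.03), Cd40lg (−2.16) and Il21 (−1.34) the most, while DESeq2 called 3 lower and none higher. In that class Il2rb rose (0.71) and 3 cytotoxic genes fell, among them Gzmb (−2.30) and Itgae (−1.30), and of 19 regulators Tox rose (0.36) and 5 fell, with Tcf7 (−1.58) and Lef1 (−1.37) the lowest, against 1 and 2 by DESeq2. Of the signaling genes Lat fell (−0.38). All list counts of this class rest on both knockdown libraries, since edgeR called 0 genes without either, as given above.

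In CD4+ non-effector cells of the knockdown, with 10.7% of all genes called, 7 of 12 cytotoxic genes rose and 1 fell, with Gzmk (3.37) and Ccl5 (2.38) against Prf1 (−0.59), and DESeq2 called 5 higher and none lower. Gzmk was at 0.296, 0.439, 4.28 and 3.41 CPM and Ccl5 at 60.1, 71.3, 305 and 363, and the share of these cells with Apoe was higher in both knockdown libraries, as given above, and its part was not tested. Of 20 regulators 4 rose, led by Id2 (0.37) and Tox (0.32), and 3 fell, Tcf7 (−0.44) and Satb1 (−0.29) the most, against 1 and 3 by DESeq2. Of 8 helper genes 3 rose, Maf (0.99), Tnfrsf4 (0.68) and Icos (0.68), and of 6 signaling genes Lat fell (−0.17), where DESeq2 called 0 and had 1 at an unadjusted p under 0.05. In CD8+ non-effector cells, with 1.08% of all genes called, 3 of 8 cytotoxic genes tested rose, Ccl5 (3.51), Gzmb (3.31) and Il2rb (1.03), as did Maf (3.60), 1 of 5 helper genes tested. DESeq2 called 1 of these 8 and 0 of these 5, with 4 and 2 at an unadjusted p under 0.05. Of the 20 regulators edgeR and DESeq2 called 0 there, with 2 at an unadjusted p under 0.05 by edgeR and 0 by DESeq2, and of the 6 signaling genes 0 by both tools, with 0 at an unadjusted p under 0.05.

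The genes whose levels ran most like Zbtb7b and Runx3 over the 16 sums of library, lineage and state were named as a description, after genes with a mean under 50 CPM and ribosomal, mitochondrial and T cell receptor genes were set aside. Sums of a library share its depth and free RNA. For Zbtb7b (2027 genes) they were Izumo1r (Pearson's r = 0.96), Tnfrsf4 (0.96), Cd5 (0.92), Fkbp1a (0.92) and Pim1 (0.90). For Runx3 (2026 genes) they were Eomes (0.99), Cst7 (0.97), Med30 (0.97), Sorl1 (0.97) and Cxcr6 (0.97). Eomes encodes a T-box factor of cytotoxic lymphocytes, and Cxcr6 a chemokine receptor of T cells in tissues.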

How the data were processed

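CITE-seq was available for 4 libraries in 2 groups. The authors deposited UMI counts per cell for genes and tags, as filtered and unfiltered matrices made with Cell Ranger against mm10; Seurat 4.0.0 is also named in their processing notes. The counts were used as deposited, and 1 tag row without a name was left out. Cells with 200 to 3000 genes and at most 5% mitochondrial UMIs were kept, the limits of the study's methods, and 16% to 18% of them were removed as doublets by their share of simulated doublets among nearest neighbors (threshold by Otsu's method). Lineage came from Otsu thresholds on the CD4 and CD8b tags per library.

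Counts were summed per library, lineage and state and tested in edgeR 4.0.16 (R 4.3.3) with quasi-likelihood tests, TMM scaling, filterByExpr and Benjamini-Hochberg adjustment, with the library as a block where the states or lineages of a library were compared. A call is an adjusted p under 0.05. Tags were tested the same way over 197 tags. A difference between comparisons was tested in 1 fit of 16 sums. Other tools were DESeq2 1.42.0, Python 3.11.15, scipy 1.17.1, scikit-image 0.26.0 and scikit-learn 1.9.0, and the tests were tested on simulated data first. Intervals are exact at 95%.

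The members and lists were chosen with earlier results of these data known. The members are named in every comparison. Of each list the counts called are given and, as examples, the highest and lowest pair of log2 fold changes among called genes, and for likeness the 5 highest correlations. Within a group, the labels give replicate numbers 1 and 2. Alternatives covered the scaling, filter, tool, doublets, gates, Nkg7 rule, thinning and each library left out. Chosen after seeing the data were scaling by the total of the RNA UMIs, leaving out cells with Foxp3, with markers of other cell types or with RNA of the other lineage, testing tags and lineages within states, and the alternatives of the tests of differences. Promoter windows came from RefSeq (GRCm38.p6), which matched 3 of the 5 genes, and gene positions from GENCODE.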

Additional observations from a re-analysis of the deposited data

Results flagged for a closer look

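The knockdown effect differed between the states of a lineage for 3 genes in CD4+ cells and 2 in CD8+ cells, by a test of the difference itself in edgeR with adjustment over 10382 genes, of which 4.34% were called in CD4+ and 5.72% in CD8+ cells. In CD4+ cells the log2 effect in effector minus non-effector cells was 0.47 ± 0.11 for Cd4 (adjusted p = 0.0043), −1.18 ± 0.23 for Cd8a (adjusted p = 0.0011) and −1.98 ± 0.24 for Cd8b1 (adjusted p = 3.72e-07). Over 17 alternatives the Cd8b1 difference ran from −2.43 to −1.22 and stayed called in all 17, and those of Cd4 and Cd8a stayed called in 14. Few cells carried the Cd8b1 value of effector cells: in control 2, 32 cells without a Cd4 UMI held 175 of 197 UMIs, and effector cells with a Cd4 UMI had Cd8b1 at 28.8, 20.7, 28.5 and 30.0 CPM, with overlap between groups. The Cd4 call was lost without control 1 (0.54), without control 2 (0.41) and without Foxp3 cells (0.43), and the Cd8a call without control 2 (−0.71), with at least 5 Nkg7 UMIs (−0.35) and with Nkg7 at equal depth (−0.59). In CD8+ cells the difference was 0.78 ± 0.12 for Runx3 (adjusted p = 9.82e-06) and 0.54 ± 0.09 for Cd8a (adjusted p = 6.87e-05), called in all 17 alternatives for both (0.60 to 1.09 and 0.52 to 0.92). The step of Runx3 from non-effector to effector cells differed between the lineages by 2.00 ± 0.08 (adjusted p = 1.99e-19), with a range of 1.21 to 2.22 over 17 alternatives. The Nkg7 level of the effector classes also differed between the lineages, as given above, and its part was not tested.

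Of the 3 coreceptor tags, only the CD8a tag made up more of the tag UMIs outside the cells than inside. It took at least 0.154% of the tag UMIs of barcodes not called as cells in each of the 4 libraries. This was above its share in called cells, and no comparison between groups used these barcodes. The other named tags were not compared in this way.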

How the results depend on the processing

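Depth limits Zbtb7b and Cd4 in CD8+ cells, where a class holds few UMIs per library, and CD8+ non-effector cells of the knockdown, with 83 and 144 cells. Zbtb7b was not tested there. With 2 libraries per group, a fit without 1 library assumes that the lone library varies like the other group. Requiring a log2 fold change of at least 1 beside the adjusted p left 632 genes between lineages, 1860 and 281 between the states of CD4+ and CD8+ cells, and 198, 144, 53 and 1137 between groups in CD4+ non-effector, CD4+ effector, CD8+ non-effector and CD8+ effector cells. DESeq2 called 2031 genes between lineages and 451, 164 and 2554 between groups in CD4+ non-effector, CD4+ effector and CD8+ effector cells, and under it Runx3 between lineages (−0.90), Zbtb7b by state in CD8+ cells (−1.40), Runx3 by group in CD4+ non-effector cells (0.30) and Zbtb7b by group in CD8+ effector cells (1.17) were not called. The cause of these and the following shifts was not tested.

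The CD8a tag in place of CD8b gave 3154 and 1231 genes by state in CD4+ and CD8+ cells and 443, 1012 and 583 by group in CD4+ non-effector, CD4+ effector and CD8+ non-effector cells, with Runx3 at 0.23 in CD4+ non-effector and −0.57 (called) in CD8+ non-effector cells and Cd8a at −2.01 in CD4+ effector cells. Agreement with the RNA lineage was then 42.3% and 65.2%, and without doublet removal 79.5% for CD8. By group in CD8+ non-effector cells 223 genes were called without a count filter, 325 with mitochondrial UMIs up to 10%, 253 with at least 5 Nkg7 UMIs, 279 with Nkg7 counted at equal depth, 140 without doublet removal and 159 with scaling by the total. By state in CD8+ cells 1238 were called without the filter, 978 without the library block, 840 at 10% mitochondrial UMIs and 971 with at least 5 Nkg7 UMIs. By group in CD4+ effector cells 831 were called without doublet removal and 777 without an upper limit on genes, and in CD4+ non-effector cells 660 without Foxp3 cells. Cd8a by group in CD4+ effector cells, not called at 0.10, was at −0.11 without doublet removal, −0.0016 without Foxp3 cells and −0.047 without cells of other markers.

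Zbtb7b by state in CD8+ cells lost its call without the upper gene limit (−1.01), with lineage by RNA (−0.46), with 5 Nkg7 UMIs (−0.63) and with Nkg7 at equal depth (−0.69), and by group in CD8+ effector cells with lineage by RNA (0.55) and without other markers (0.93). Runx3 by group in CD4+ non-effector cells lost its call without the upper gene limit (0.22), at 10% mitochondrial UMIs (0.21), with lineage by RNA (0.089), with Nkg7 at equal depth (0.25), without RNA of the other lineage (0.25) and without Foxp3 cells (0.26). The group effect by state in CD4+ cells became called for Zbtb7b with Nkg7 at equal depth (−0.79) and for Runx3 without other markers (0.44). For Cd8b1 in CD8+ cells it became called with scaling by the total (0.36).

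The pairing of libraries by number rests on the number alone, since differences between same-numbered libraries correlated at −0.032 to 0.41 over 4 classes. With the replicate block, 1061, 399, 18 and 4670 genes were called by group in CD4+ non-effector, CD4+ effector, CD8+ non-effector and CD8+ effector cells, against 1174, 500, 89 and 4790. Scaling by the total in place of TMM changed the split of higher and lower calls from 1602 and 1624 to 3845 and 806 between lineages, from 2530 and 2503 to 4498 and 1351 by state in CD4+ cells, from 679 and 495 to 609 and 654, from 191 and 309 to 162 and 448, from 78 and 11 to 68 and 91 and from 2426 and 2364 to 3359 and 1556 by group, in the same order of classes.

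For tags, scaling by the total gave 176 calls (12 higher, 164 lower, against 29 and 19) and 117 calls (14 and 103, against 8 and 1) by state in CD4 and CD8 RNA cells, and 146 (119 and 27, against 54 and 48) and 170 (147 and 23, against 62 and 59) by group. Effector and non-effector CD4 RNA cells alone gave 154 and 157 under that scaling, and CD8 non-effector cells alone gave 75. With at least 1 Cd8 UMI, 19 tags were called by state. The CD8a tag by state in CD8 cells was −0.14 and the CD8b tag by group in CD4 cells 0.048 with scaling by the total, 0.032 in effector cells alone, and 0.56 and 0.26 in effector and non-effector cells with that scaling. The CD4 tag by group was −0.31 in non-effector cells alone, and the CD8a tag −0.021 without doublet removal.

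Mean shares of cells with Runx3 at 1000 UMIs and unthinned were 32.0% and 82.1% in CD4+ effector (53.1% at 2000 UMIs), 5.26% and 27.2% in CD4+ non-effector (8.82%) and 20.3% and 74.8% in CD8+ effector cells, and those of Zbtb7b 4.15% and 24.4% in CD4+ non-effector cells (7.90%). Runx3 in CD4+ effector cells was at 49.6% without doublet removal. Leaving out 1 library at a time gave 284 to 545 genes by state in CD8+ cells, and 691 to 1113, 0 to 553 and 28 to 176 by group in CD4+ non-effector, CD4+ effector and CD8+ non-effector cells. It gave Zbtb7b −1.49 to −1.32 and Runx3 0.58 to 0.91 by state in CD8+ cells, Runx3 0.29 to 0.31 in CD4+ non-effector and 0.41 to 0.47 in CD4+ effector cells by group, Cd8a −0.27 to 0.60 in CD4+ effector cells, and Zbtb7b 0.98 to 1.40 in CD8+ effector cells. For tags it gave 30 to 44 and 3 to 6 calls by state and 64 to 92 by group in CD4 cells, the CD4 tag −0.10 to 0.020 by state in CD8 cells and the CD8a tag −0.076 to 0.049 by group in CD4 cells. Runx3 shares ran from 51.3% to 55.6% in CD4+ effector and from 34.2% to 39.0% in CD8+ effector cells.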
